A study of Mus musculus with 16 samples.

Results

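The comparison described here set LSK cells of mice with an altered Gata2 enhancer against LSK cells of wild-type mice when neither had received a cytotoxic drug. LSK cells are the marrow cells that carry no lineage antigens but do carry Sca-1 and c-Kit, a population that contains the hematopoietic stem cells and multipotent progenitors. The members were taken by sample title: 5 libraries titled mutant with PBS and 5 titled wild type with PBS, which made 10 of the 16 libraries of the series. All genes of the deposited tables entered. The other 6 libraries (3 wild type and 3 mutant) came from mice given 250 mg/kg 5-fluorouracil (5-FU), and they are used here to estimate the spread and as a second setting for the same genotype difference.

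The mutant was Gata2 +9.5(Ets)-/-, homozygous for a C-to-T substitution in an Ets motif of the +9.5 element. Per the labels, all mice were on a C57BL/6J background and 8 to 14 weeks old, and marrow was collected 10 days after an injection of PBS or 5-FU, so the PBS groups shared the injection and the wait with the drug groups. Cells negative for B220, CD3, CD4, CD5 and CD8 and positive for Sca-1 and c-Kit were sorted, at 3000 to 10000 cells per replicate. The labels do not say that replicates were separate mice, so p-values measure the spread between these samples, which may be partly technical.

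GATA2 is a zinc-finger transcription factor that binds GATA sequences and that hematopoietic stem cells need for their emergence and maintenance. The +9.5 element is an enhancer inside an intron of Gata2 that holds an E-box, a GATA motif and an Ets motif, and factors of the Ets family, among them ERG and FLI1, act with GATA2 at many blood cell enhancers. The base change is outside the coding sequence, so the level of Gata2 mRNA is a readout and not a test of the genotype labels.

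Levels are given as CPM, counts per 1e6 after scaling of each library with TMM factors, and differences as log2 fold changes, mutant minus wild type, with their standard error (SE). Total counts ran from 19.37 to 27.16 (in units of 1e6 counts) per PBS library. Kit was present in each PBS library, at 95.6 to 471 CPM, and Ly6a, which encodes Sca-1, at 157 to 3787 CPM. Cd3e did not exceed 1.25 CPM and Cd8a did not exceed 0.899 CPM in any of the 10. Immunoglobulin genes, however, held between 3.67 and 50.17% of the counts, with a mean of 28.6 ± 14.24% (SD, n = 5) in wild type and 25.87 ± 18.39% (n = 5) in the mutant (exact two-sided permutation p = 0.81, adjusted p = 0.849 over 4 such tests, where the smallest p possible is 0.00794).

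Genotype was not the main axis of variation among the 10 libraries. On the first principal component, which carried 38.6% of the variance, the libraries numbered 3 lay far to one side in both genotypes, at -122.3 in wild type and -116.4 in the mutant. Replicates 1 stood at 6.4 and 8, replicates 2 at -28.4 and -24.9, replicates 4 at 50 and 75.1, and replicates 5 at 71.5 and 81.1. Within each genotype the order on this component followed the immunoglobulin share. The share fell from 44.24% in replicate 3 to 6.373% in replicate 5 of wild type, and from 50.17% to 3.668% in the mutant. On the second component (13.6%), the libraries numbered 3 were apart, at -73.9 in wild type and -5 in the mutant. Mutant replicate 4 lay nearer to wild-type replicate 5 than to wild-type replicate 4 on both components. The sex-linked genes followed the numbers too. Replicates 1 and 2 of each genotype had between 2144 and 3138 counts from the Y-linked genes examined and at most 6 from Xist, and replicates 3 to 5 had between 2152 and 5504 Xist counts and at most 2 Y-linked ones, so that both groups held 2 libraries of the first kind and 3 of the second.

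**Figure D1:**
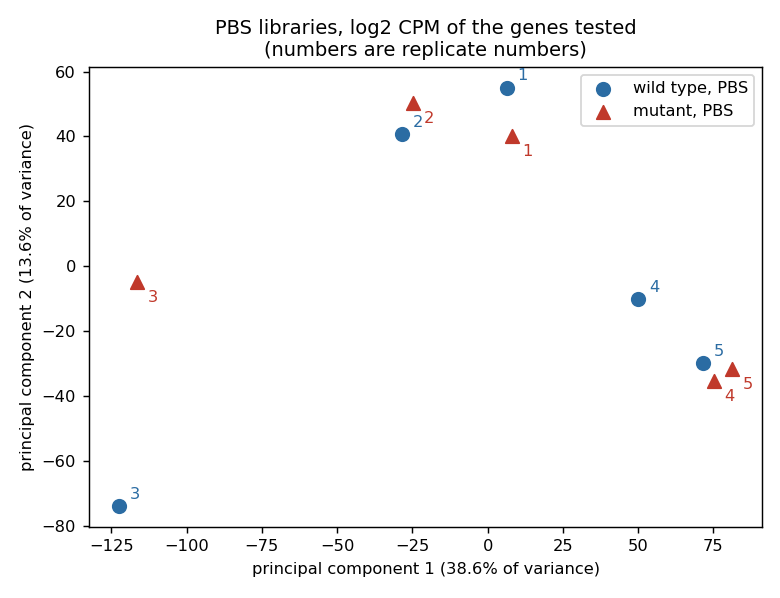
Principal components of log2 CPM over the genes tested for the 10 PBS libraries. Circles are wild-type and triangles mutant libraries, labelled with their replicate numbers, and the axes give each component's share of the variance. The libraries numbered 3 stand apart from the rest at -122.3 and -116.4 on the first component and differ on the second, at -73.9 and -5.

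Of 16482 genes with enough counts to test, 3 passed an adjusted p of 0.05 (edgeR quasi-likelihood test), which is 0.0182% of those tested. All 3 were higher in the mutant, again 0.0182%, and none was lower. They were Slamf1, Hoxb2 and Selp. At an unadjusted p of 0.05, 541 genes (3.28%) passed, 264 of them higher (1.6%) and 277 lower (1.68%) in the mutant. In 53 genes (0.322%) all 5 mutant values exceeded all 5 wild-type values, and in 50 (0.303%) all 5 were below them. The DESeq2 Wald test called 26 genes (0.158%), 15 higher and 11 lower, of which 6 were immunoglobulin variable-region genes, and limma-voom with sample quality weights called 9 (0.0546%), 6 higher and 3 lower. Both lists held the same 3 genes, and both also held Sdsl and Gp9 among those higher and Slc35d3, Itgb5 and Rftn2 among those lower.

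**Figure D2:**
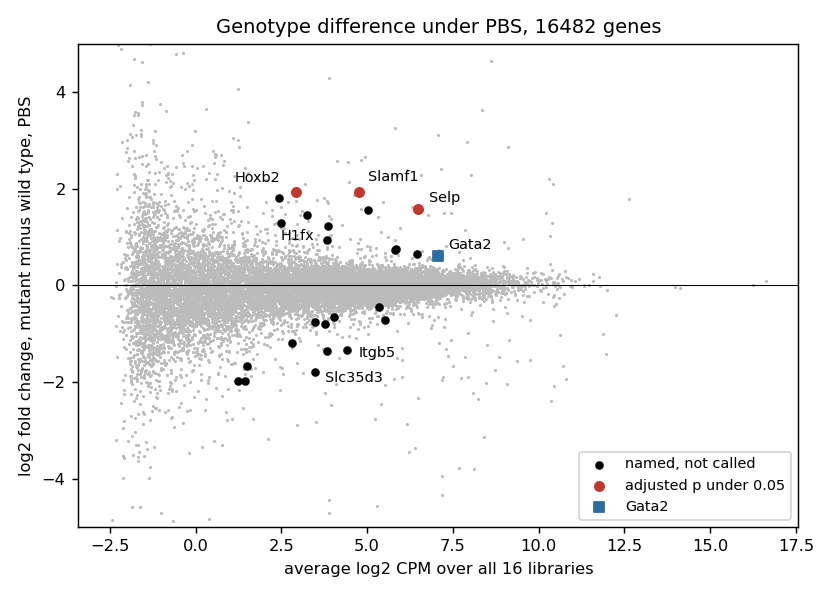
Log2 fold change between the PBS groups against average log2 CPM over the 16 libraries, 1 point per gene tested. Red marks the 3 genes with an adjusted p under 0.05, black the other named genes, the 12 of smallest p in each direction by the rule for named genes (a group mean of 5 CPM or more), and the square Gata2. 32 genes lie beyond the vertical axis. The 3 red points stand at log2 fold changes of 1.58 to 1.93.

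Slamf1 (ENSMUSG00000015316.11; chromosome 1, 171767127 to 171801184, plus strand, mm10/GRCm38) encodes CD150, a receptor of the SLAM family that is used to mark long-term stem cells within the LSK fraction. Replicates 1 to 5 of wild type stood at 5.55, 5.20, 2.72, 4.19 and 5.14 CPM, and mutant replicates 1 to 5 had 19.02, 12.1, 19.6, 15.3 and 21.3 CPM. The highest wild-type library was below the lowest mutant one by more than the whole range within wild type. The level was 4.56 ± 1.15 (SD, n = 5) CPM in wild-type libraries and 17.5 ± 3.71 (n = 5) CPM in mutant ones, a 3.81-fold rise. On the log2 scale this was 1.93 ± 0.21 (SE; adjusted p = 0.000945, edgeR). Between libraries of the same number, the log2 ratio ran from 1.22 to 2.85.

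Hoxb2 (ENSMUSG00000075588.6; chromosome 11, 96350525 to 96354012, plus strand) encodes a homeodomain transcription factor of the HoxB cluster. It was read at 2.20, 2.38, 1.45, 1.87 and 1.07 CPM in wild-type replicates 1 to 5, from 16 to 50 counts per library. The mutant replicates 1 to 5 had 7.92, 8.17, 5.55, 6.80 and 5.60 CPM, from 63 to 208 counts. Each mutant value was thus above each wild-type value. The gene rose from 1.80 ± 0.537 to 6.81 ± 1.24 (SD, n = 5 each) CPM, by 1.92 ± 0.26 (SE) on the log2 scale (adjusted p = 0.011, edgeR). The log2 ratio of same-numbered libraries ran from 1.78 to 2.39. The antisense gene Hoxb3os overlaps Hoxb2 on the other strand, and the sources used here do not say whether counting used strand.

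Selp (ENSMUSG00000026580.16; chromosome 1, 164115264 to 164150026, plus strand) encodes P-selectin, an adhesion receptor stored in the granules of platelets and endothelial cells. In wild type, replicates 1 to 5 stood at 10.2, 11.6, 7.80, 11.2 and 16.4 CPM and mutant replicates 1 to 5 had 34.5, 24.9, 24.2, 42.3 and 46.3 CPM. The groups did not overlap. The mean rose from 11.5 ± 3.15 to 34.4 ± 9.97 (SD, n = 5 each) CPM, by 1.58 ± 0.22 (SE) on the log2 scale (adjusted p = 0.011, edgeR), and pair ratios ran from 1.10 to 1.92. 2 antisense models, Gm16548 and Gm16587, overlap it.

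The calls differed between fits. Fitted on the 10 PBS libraries alone, the log2 fold changes were 1.94 for Slamf1, 1.92 for Hoxb2 and 1.58 for Selp, with adjusted p-values of 0.103, 0.182 and 0.182, and no gene passed. With the immunoglobulin share as a covariate in those 10 libraries, 4 genes passed, among them Slamf1 (1.93, adjusted p = 0.012) and Selp (1.52, adjusted p = 0.00279) but not Hoxb2 (1.97, adjusted p = 0.0588). The other 2, Slc35d3 and Hnf4a, were lower in the mutant, and Hnf4a also passed as lower with that covariate over all groups. With the replicate number as a block, Slamf1, Hoxb2 and Selp passed in the fit over all groups, which also ties the 5-FU libraries by number. After 5-FU, however, the genotypes differed in Xist and Y-linked counts at each of the numbers 1, 2 and 3. In the fit over PBS libraries alone the block left Selp past the threshold and put Slamf1 and Hoxb2 at an adjusted p of 0.0699 each. Leaving out wild-type replicate 4 put Hoxb2 at 0.0532 and Selp at 0.111, and leaving out wild-type replicates 1 or 2 put Selp at 0.0564 or 0.0602.

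Within the 3 replicates per group whose label codes begin with a zero, the log2 fold change was 1.90 for Slamf1 (adjusted p = 0.0433), 1.83 for Hoxb2 (0.232) and 1.49 for Selp (0.0433). Within the other 2 per group it was 1.97, 2.08 and 1.68. Among the Xist libraries Slamf1 stood at 2.20, Hoxb2 at 2.03 and Selp at 1.66, and among the Y-linked libraries at 1.53, 1.81 and 1.44. In each of the 3 genes all mutant values lay above all wild-type values. Any split of these libraries therefore had to give the same direction, which adds no support. With 2 libraries per group none passed.

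Stretches upstream of the start are shown for Slamf1 and Selp, the called genes with a RefSeq promoter entry in the table used, and for Gp9, a gene near Gata2 described further on, since the altered motif is an Ets site beside a GATA site and the same words can be looked for at these genes. Each is 250 bases before the RefSeq start (GRCm38.p6, plus strand), with capitals on GATA words (AGATAA or TGATAA) and Ets words (AGGAAG or CGGAAG) of either strand.
Slamf1, chr1:171766882-171767131: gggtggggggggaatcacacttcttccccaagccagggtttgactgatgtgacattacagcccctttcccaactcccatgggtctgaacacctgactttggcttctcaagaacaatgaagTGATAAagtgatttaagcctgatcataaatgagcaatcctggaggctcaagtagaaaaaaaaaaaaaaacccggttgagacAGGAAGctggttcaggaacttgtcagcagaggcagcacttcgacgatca
Selp, chr1:164115014-164115263: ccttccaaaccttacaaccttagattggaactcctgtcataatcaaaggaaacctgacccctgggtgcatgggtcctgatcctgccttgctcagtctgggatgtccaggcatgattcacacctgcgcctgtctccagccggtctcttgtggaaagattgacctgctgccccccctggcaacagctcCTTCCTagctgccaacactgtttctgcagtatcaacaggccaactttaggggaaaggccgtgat
Gp9, chr6:87777820-87778069: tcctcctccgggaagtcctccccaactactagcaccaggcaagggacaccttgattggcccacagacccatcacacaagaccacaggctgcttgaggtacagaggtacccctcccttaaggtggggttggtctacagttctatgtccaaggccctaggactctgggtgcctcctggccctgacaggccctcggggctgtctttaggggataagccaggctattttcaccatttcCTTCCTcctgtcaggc
Slamf1 held 1 GATA word, at -130 from the start, and 1 Ets word at -49. Selp held 1 Ets word at -64 and Gp9 1 at -16, both on the minus strand, where AGGAAG reads CTTCCT. Such words are common: of 32851 RefSeq windows of this length, 16.6% held a GATA word and 39.2% an Ets word.

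The 5-FU libraries gave the genotype difference in samples that took no part in the PBS means, although they entered the same fit. There, 321 genes (1.95%) passed between genotypes. Hoxb2 was among them: its level was 6.07, 6.41 and 9.23 CPM in the wild-type and 21.3, 14.1 and 19.01 CPM in the mutant replicates 1 to 3, and it rose by 1.32 ± 0.32 (adjusted p = 0.0447, edgeR). Slamf1 stood at 39.5 ± 3.73 (SD, n = 3) CPM in wild-type libraries and 68.9 ± 6.63 (n = 3) CPM in mutant ones, with groups that did not overlap, and the log2 fold change of 0.80 ± 0.25 did not pass (adjusted p = 0.116, edgeR). Selp was at 214, 218 and 278 CPM in wild type and at 165, 182 and 155 CPM in the mutant, with a difference of -0.50 ± 0.28 (adjusted p = 0.334).

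The test of the change in the genotype difference between settings called 97 genes (0.589%). For Selp the difference after 5-FU minus that under PBS was -2.09 ± 0.35 (adjusted p = 0.0141, edgeR), so the excess of Selp in the mutant under PBS was not seen 10 days after the drug, when the value had the opposite sign. For Slamf1 it was -1.13 ± 0.32 (adjusted p = 0.138) and for Hoxb2 -0.60 ± 0.40 (adjusted p = 0.599). Neither passed. These 3 genes were picked for their difference under PBS, which this test subtracts, so the choice itself can enlarge the change. After 5-FU the label codes had a leading zero in all 3 mutant and in none of the wild-type libraries, and immunoglobulin genes held 5.69 to 26.57% of counts in the mutant and at most 0.332% in wild type, so that in these 6 libraries genotype and the kind of code cannot be told apart.

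**Figure D3:**
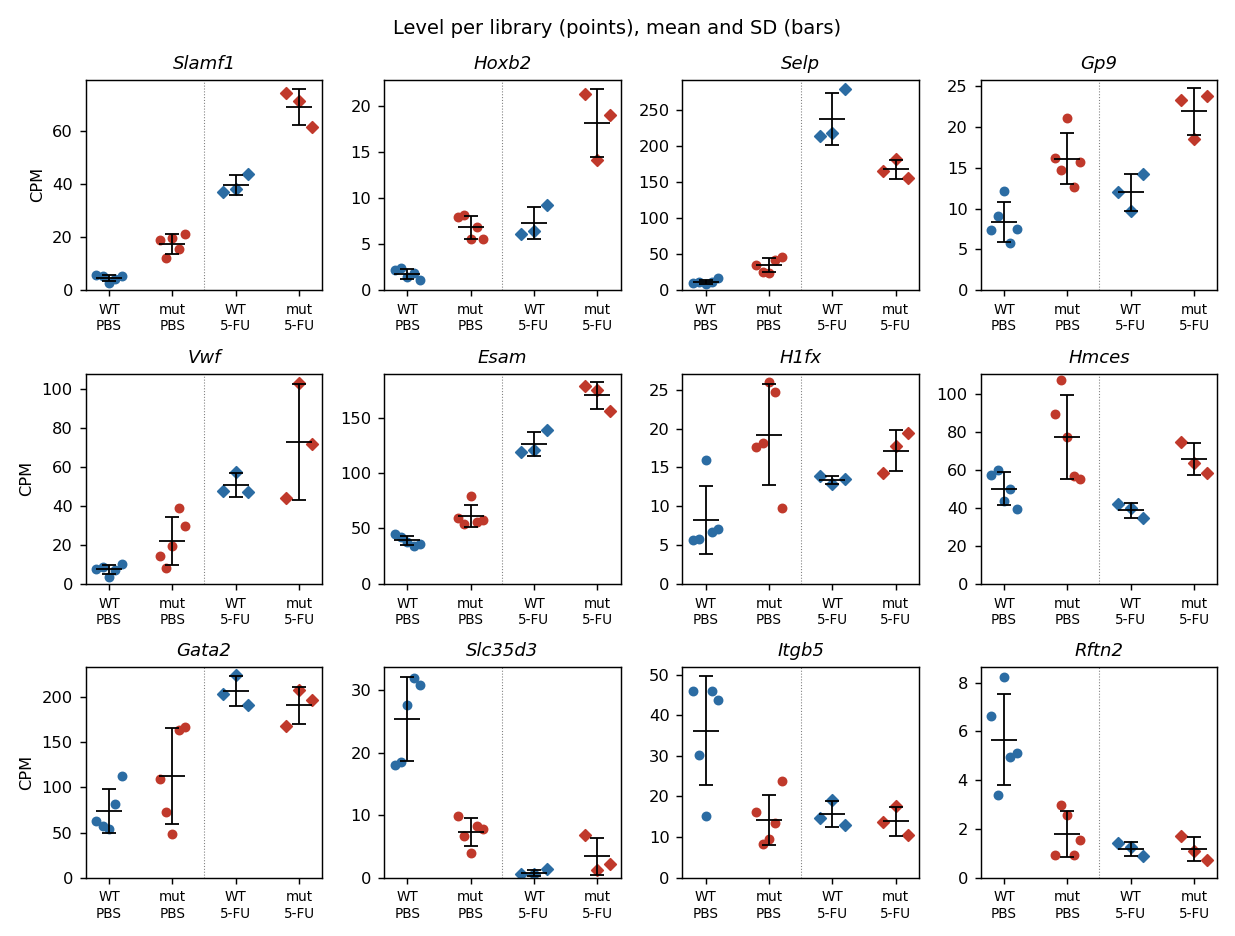
CPM of 12 genes in each library. Blue is wild type and red mutant, circles are PBS and diamonds 5-FU libraries, and bars give the mean and SD (n = 5 for PBS, n = 3 for 5-FU). Slamf1, Hoxb2 and Selp do not overlap between genotypes under PBS, and Selp is lower in the mutant libraries than in the wild-type ones after 5-FU.

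Beyond the 3 called genes, the 9 named genes with the smallest p-values among those higher in the mutant had adjusted p-values from 0.662 to 0.846 and are described by their values. Nectin2, an adhesion molecule of the immunoglobulin superfamily, had 2.66 ± 0.639 CPM in wild-type libraries and 6.47 ± 1.86 CPM in mutant ones (SD, n = 5 each; log2 fold change 1.28 ± 0.27 SE). Esam, an adhesion molecule of endothelial cells that stem cells also carry, had 44.9, 42.6, 38.2, 34.3 and 35.8 CPM in wild-type and 59.1, 54.3, 79.4, 55.7 and 57.7 CPM in mutant replicates 1 to 5. Its difference of 0.64 ± 0.14 was small next to those above but the groups did not overlap. Sdsl, a serine dehydratase-like enzyme, and Gstm2, a glutathione transferase, did not overlap either, with log2 fold changes of 0.75 ± 0.16 and 1.81 ± 0.43. Gstm2 was at 12.8 ± 4.89 CPM in the mutant and 3.29 ± 0.985 CPM in wild type (SD, n = 3 each) after 5-FU.

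Vwf, which encodes von Willebrand factor, the blood clotting protein of platelets and endothelium, marks a platelet-primed share of stem cells. It had 7.85, 8.71, 3.63, 7.03 and 10.2 CPM in wild-type and 14.5, 8.01, 19.7, 39.2 and 29.8 CPM in mutant replicates 1 to 5. The groups overlapped through mutant replicate 2, and the difference was 1.57 ± 0.37 (adjusted p = 0.767, edgeR). Chga, which encodes the granule protein chromogranin A, differed by 1.46 ± 0.35, with overlap through mutant replicate 3. Ppic, a cyclophilin, differed by 0.73 ± 0.18 under PBS. Among the 5-FU libraries its difference, mutant minus wild type, was 1.06 ± 0.24 (adjusted p = 0.0343, edgeR). The other named gene of this direction, H1fx, is taken up with the surroundings of Gata2.

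No gene fell in the mutant by the edgeR test in the reported fit. The smallest p among the named genes lower in value belonged to Slc35d3, a member of the nucleotide sugar transporter family that platelet dense granules require. The wild-type libraries 1 to 5 stood at 18.0, 18.6, 27.6, 31.9 and 30.9 CPM and mutant replicates 9.83, 6.71, 3.96, 8.31 and 7.84 CPM. The groups were well apart, with a log2 fold change of -1.79 ± 0.41 (adjusted p = 0.759, edgeR). The DESeq2 and limma-voom tests called it. So did edgeR with the immunoglobulin share as a covariate in the PBS groups alone (-1.84, adjusted p = 0.012). After 5-FU its level was lower in both genotypes, at 0.803 ± 0.457 CPM in wild-type libraries and 3.40 ± 2.97 CPM in mutant ones (SD, n = 3 each), and the genotype difference changed by 3.87 ± 0.69 between the settings (adjusted p = 0.0198, edgeR). Slc35d3 too was picked by its p-value under PBS, so the choice can enlarge this change.

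Itgb5, the beta subunit of an integrin that binds vitronectin, had 45.9, 30.2, 15.2, 46.1 and 43.8 CPM in wild type and 16.1, 8.37, 9.60, 13.5 and 23.8 CPM in the mutant. Wild-type replicate 3 lay among the mutant libraries, and the difference was -1.34 ± 0.32 (adjusted p = 0.767, edgeR). Rftn2, a raftlin family member, ran from 3.39 to 8.25 CPM in wild type and from 0.916 to 2.96 CPM in the mutant (-1.68 ± 0.41, adjusted p = 0.769). After 5-FU both genotypes stood at 1.18 CPM. Epha7, an ephrin receptor, ran from 3.50 to 8.76 CPM in wild type and from 0.528 to 2.91 CPM in the mutant (-1.99 ± 0.60). St8sia4, a polysialyltransferase, Fam208a, which encodes the TASOR subunit of the HUSH silencing complex, Tsga10 and Chuk, the kinase IKK-alpha, did not overlap between groups and differed by -0.71 ± 0.17, -0.66 ± 0.18, -1.19 ± 0.38 and -0.46 ± 0.15. Acot2, a mitochondrial acyl-CoA thioesterase, Zfp992, Fnip1 and the T cell receptor constant gene Trbc1 overlapped, with differences from -1.99 to -0.75. Apart from Slc35d3, Itgb5, Rftn2 and St8sia4, these 12 genes had an adjusted p of 1.

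Gata2 itself (ENSMUSG00000015053.14; chromosome 6, 88193891 to 88207032, plus strand) did not pass, with a log2 fold change of 0.60 ± 0.30 (SE; 95% interval -0.03 to 1.23; adjusted p = 1, edgeR). The interval holds 0 and ends above 1 log2 unit. Ratios of same-numbered libraries were 0.80, 0.34, -0.16, 1.00 and 0.56, positive in 4 of 5 pairs. Under the 31 alternative settings the value stayed between 0.40 and 0.82 and passed in none.

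Around Gata2, 22 other tested genes had spans within 500 kb. The log2 fold change was positive in 14 and negative in 8, with a median of 0.14, against a median of -0.05 over the 935 genes tested on the rest of chromosome 6. There, 3 had an unadjusted p under 0.05, all of them higher in the mutant (the background for that direction being 1.6%), and none passed after adjustment. On the rest of the chromosome 23 were higher and 22 lower at that p. The 3 genes all lay on the upstream side of Gata2. With a window of 250 kb, 1 of 6 tested genes was past that p, and with 1000 kb 4 of 36 were, Gkn3 being added.

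Gp9, with its start 415.8 kb upstream of that of Gata2 (chromosome 6, 87778072 to 87779768, plus strand), encodes platelet glycoprotein IX, a part of the receptor for von Willebrand factor. The wild-type libraries 1 to 5 read 7.35, 9.09, 12.2, 5.76 and 7.47 CPM and mutant replicates 1 to 5 had 16.2, 14.8, 21.1, 12.7 and 15.6 CPM. The groups did not overlap and the pair ratios were even, from 0.70 to 1.14, with a log2 fold change of 0.95 ± 0.22 (unadjusted p = 0.000452, adjusted p = 0.759, edgeR). After 5-FU its difference was 0.87 ± 0.28 (adjusted p = 0.118), and the 2 settings differed by -0.08 ± 0.35. Its upstream sequence stands with those of Slamf1 and Selp.

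H1fx, 212.3 kb upstream (chromosome 6, 87980421 to 87981637, minus strand), encodes a linker histone. It had 5.65, 5.77, 16.0, 6.66 and 7.01 CPM in wild-type and 17.6, 18.1, 25.98, 24.7 and 9.74 CPM in mutant replicates 1 to 5. Wild-type replicate 3 and mutant replicate 5 made the groups overlap, but within each same-numbered pair the mutant was higher, by 0.47 to 1.89. The log2 fold change was 1.23 ± 0.31 (unadjusted p = 0.000948, adjusted p = 0.799, edgeR). Of 31 alternatives, H1fx passed in 2 and did not pass in 29. The 2 were the fit without wild-type replicate 3 (1.60, adjusted p = 0.0377, edgeR) and limma-voom (1.4, adjusted p = 0.0425). The antisense model Gm5577 overlaps it and differed by 0.47 ± 0.41.

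Hmces, 280.0 kb upstream (chromosome 6, 87913935 to 87936629, plus strand), encodes a protein that shields abasic DNA sites. It ran from 39.4 to 60.3 CPM in wild type and from 55.4 to 107 CPM in the mutant, a difference of 0.62 ± 0.19 (unadjusted p = 0.00535, adjusted p = 1, edgeR). Genes between these and Gata2 had values near 0 or small ones: Rab7, a late endosome GTPase, -0.02 ± 0.16, and Rpn1, a subunit of the oligosaccharyl transferase, 0.28 ± 0.22. Downstream, Eefsec, a selenocysteine elongation factor, stood at 0.12 ± 0.19, Ruvbl1, an ATPase of chromatin remodelers, at 0.17 ± 0.21 and Sec61a1, a translocon subunit, at -0.19 ± 0.24.

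**Figure D4:**
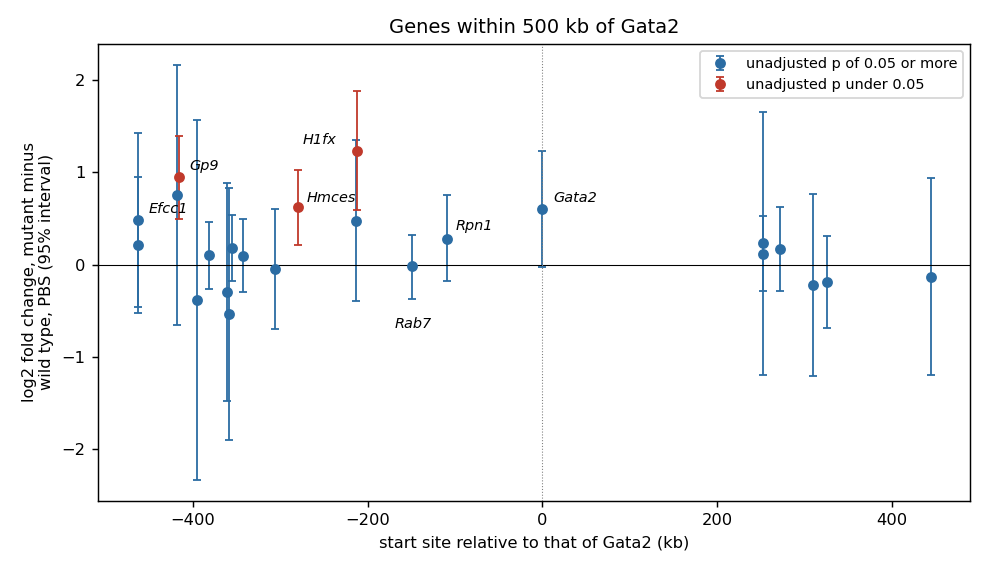
Log2 fold change under PBS for Gata2 and the 22 other genes tested within 500 kb, by the distance of their start site from that of Gata2 in kb. Bars are 95% intervals, and red marks an unadjusted p under 0.05. The 3 red points, Gp9, Hmces and H1fx, lie at -415.8, -280.0 and -212.3 kb, all above 0.

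The 31 gene lists for cell types and processes are given by their counts beside those over all genes tested, whose median log2 fold change was -0.02 and of which 1.6% were higher and 1.68% lower at an unadjusted p of 0.05. In these sorted pools, fewer cells of a type and less RNA per cell cannot be told apart. Of 24 megakaryocyte and platelet genes, Selp rose and 23 did not pass; 5 were higher and 1 lower at an unadjusted p of 0.05, and the median was 0.27. Values were positive in 16 and negative in 8, down to -2.48 for Thbs1, thrombospondin 1. The 5 were Selp, Vwf, Gp9, Gp5 and Cavin2, of which Gp5 and Cavin2 are named after their values were seen. Gp5, a further part of the platelet receptor for von Willebrand factor, had 5.25 ± 2.86 CPM in wild-type libraries and 13.6 ± 5.80 CPM in mutant ones (SD, n = 5 each; 1.37 ± 0.39 SE, adjusted p = 1). Pf4, platelet factor 4, differed by 0.09 ± 0.53 and Itga2b, CD41, by 0.61 ± 0.38. Plek, pleckstrin, was the 1 lower member, at -0.59 ± 0.28.

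Of 25 genes associated with stem cells, Slamf1 rose and 24 did not pass. Esam, Vwf and Hoxb5 were the other 3 past an unadjusted p of 0.05, all higher, and none was lower. Hoxb5, a homeodomain factor that marks long-term stem cells, had 2.00, 1.82, 3.54, 1.80 and 1.93 CPM in wild-type and 4.45, 3.95, 5.99, 3.17 and 3.58 CPM in mutant replicates 1 to 5, overlapping through wild-type replicate 3 (0.94 ± 0.32, adjusted p = 1). The median over the list was 0.07. Procr, the protein C receptor, differed by 0.21 ± 0.25, Mecom, which encodes EVI1, by 0.38 ± 0.38, Hlf by -0.24 ± 0.24 and Hoxa9 by 0.07 ± 0.14. Among 10 SLAM family genes Slamf1 alone passed; Cd48, whose product marks cells past the stem cell stage, differed by 0.17 ± 0.31 and Cd244 by 0.31 ± 0.35.

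Of 23 Hox and Meis family genes, Hoxb2 rose and 22 did not pass. Next to it in the HoxB cluster, Hoxb3 differed by -0.88 ± 0.59, Hoxb4 by -0.33 ± 0.58 and Hoxb5 by 0.94 ± 0.32. Most of these are read at low levels, so their intervals are wide. Of 28 partners of GATA2 and stem cell transcription factors, none passed, 1 (Gata3, 0.45 ± 0.15) was past an unadjusted p of 0.05, and 25 had a 95% interval inside 1 log2 unit of 0. Among the Ets factors of the list, Erg stood at 0.12 ± 0.26 and Ets1 at -0.34 ± 0.23. Runx1 stood at -0.24 ± 0.20, Gata1 at 0.12 ± 0.33 and Zfpm1, the GATA cofactor FOG1, at 0.34 ± 0.29.

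Of 20 endothelial genes tested none passed, 5 were higher at an unadjusted p of 0.05 and none lower, and the median was 0.73. Their summed level was 354.8 to 425.8 CPM in wild type and 441.3 to 628.7 CPM in the mutant. Mutant replicate 3 had the highest level of several defining markers. Cdh5, vascular cadherin, was at 8.72 CPM there, at 0.0327 to 1.57 CPM in the other mutant libraries and at 0.0374 to 0.998 CPM in wild type. Plvap was at 62.0 CPM there and at 3.44 to 23.6 CPM in the other mutant libraries, with 2.69 to 11.2 CPM in wild type. Sox18, an endothelial transcription factor, was at 16.5 CPM there, at 3.50 to 6.14 CPM in the other mutant libraries and at 1.20 to 3.64 CPM in wild type, with a log2 fold change of 1.72 ± 0.48 (adjusted p = 1, edgeR) and of 1.15 without that library. Selp and Vwf, which are not in this list, and Esam, which is, are also read in endothelium. Selp had its lowest mutant level in that library, Esam its highest, and with the library left out Slamf1, Hoxb2 and Selp all passed. The summed endothelial level was higher in every mutant library than in any wild-type one. That sum includes Esam, itself named for its small p, at 34.3 to 44.9 CPM in wild type and 54.3 to 79.4 CPM in the mutant. The sum without Esam was not computed, and the part of endothelial cells in these calls was not tested. Sox7 was at 0 in each wild-type library and at most at 0.551 CPM in the mutant.

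Markers of several mature cell types had negative medians, and those of mast cells, basophils and eosinophils a positive one. Of 22 T and NK cell genes none passed, 6 were lower at an unadjusted p of 0.05 and none higher, with a median of -0.63. Their summed level overlapped between the groups, at 189.3 to 595.8 CPM in wild type and 261.5 to 472.2 CPM in the mutant. The median library was higher in the mutant, at 317.2 against 262.7 CPM. Il2rb, a chain of the interleukin 2 receptor, had 3.77 ± 2.96 CPM in wild-type libraries and 0.929 ± 0.887 CPM in mutant ones (SD, n = 5 each). Cd3e was at 0 in 1 wild-type and 3 mutant libraries. Of 20 erythroid genes none passed at either level, with a median of -0.68. Of 21 monocyte and macrophage genes 1 was lower at that p, Ccr2, at 21.9 ± 10.7 CPM in wild-type libraries and 7.72 ± 2.47 CPM in mutant ones. Of 20 dendritic cell genes 1 was lower, and of 20 B cell and 20 plasma cell genes none was past that p. The B cell and plasma cell medians were -0.04 and -0.11, against -0.02 over all genes tested. Of 19 mast cell, basophil and eosinophil genes none was past that p, with 13 positive, 6 negative and a median of 0.25. The part of these cells in the results above was not tested.

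Lists for proliferation and basic metabolism showed no call, and most of their intervals lay inside 1 log2 unit of 0. So did 82.6% of the intervals of all genes whose higher group averaged 5 CPM or more. Over all genes tested, 7649 of 16482 values were positive. Of 27 DNA replication genes, 26 had a positive value, with a median of 0.11, and 26 had an interval inside 1 log2 unit. Tyms, thymidylate synthase, was the 1 past an unadjusted p of 0.05 (0.38 ± 0.18). Of 25 genes of G2-M and mitosis, 21 intervals were inside that bound, of 37 ribosomal protein genes 33, and of 28 genes of oxidative phosphorylation 23. Of 18 p53 target genes 2 were higher at an unadjusted p of 0.05, among them Tnfrsf10b, a death receptor, at 1.52 ± 0.341 and 3.00 ± 0.665 CPM in wild type and mutant (SD, n = 5 each; 0.98 ± 0.28 SE, adjusted p = 1).

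**Figure D5:**
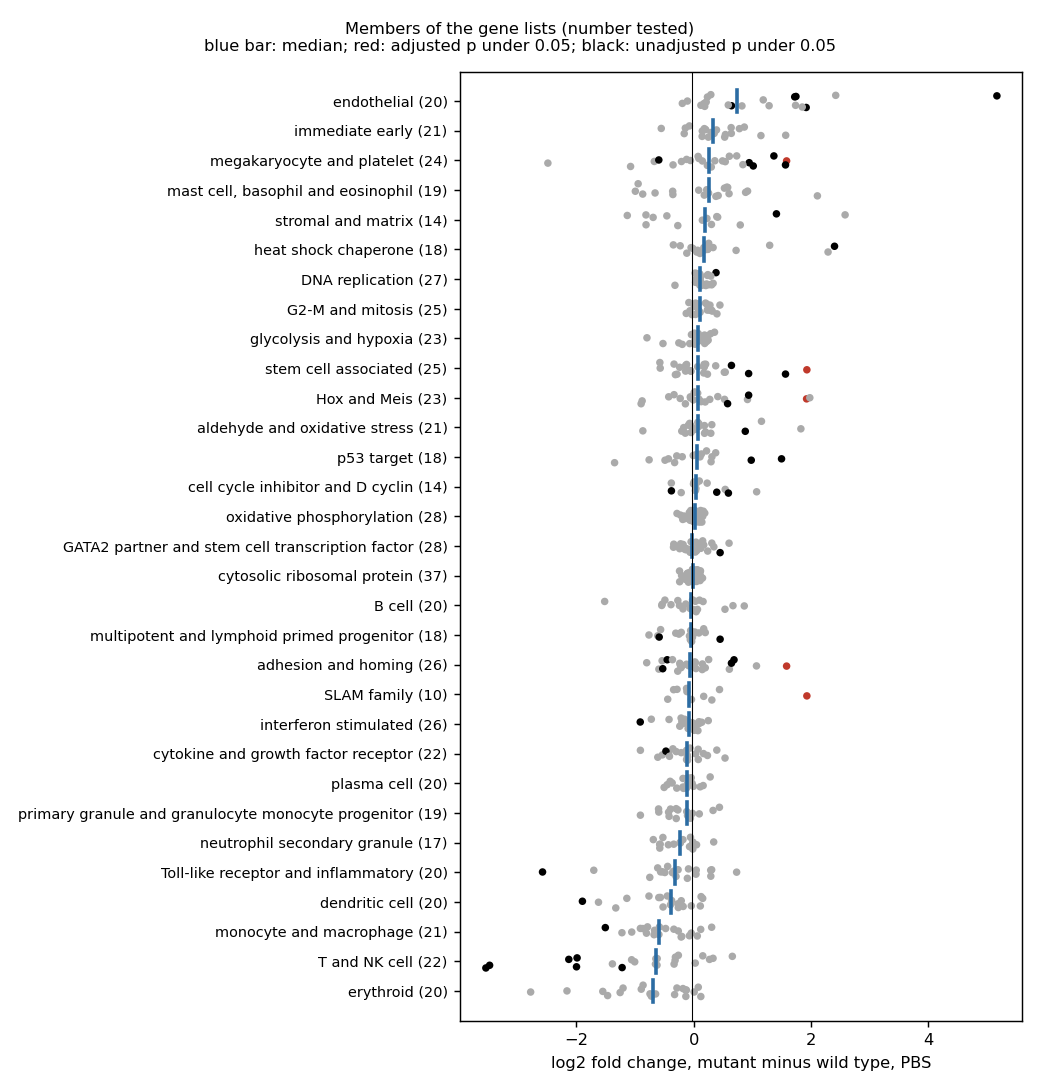
Log2 fold change under PBS of each tested member of 31 gene lists, ordered by list median, with the number tested in brackets. Blue bars are medians, red points passed an adjusted p of 0.05, black points an unadjusted p of 0.05, and the thin line is the median of all genes, -0.02. Endothelial genes have the highest median, 0.73, and erythroid genes the lowest, -0.68.

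How large a difference could have been present was read from the 95% intervals. Over all genes tested, the interval lay inside 1 log2 unit of 0 for 9477 of 16482 (57.5%), with a median SE of 0.33. Among the 11009 genes whose higher group averaged 5 CPM or more, 9091 (82.6%) lay inside, so that for these a change of that size was outside the interval. Among the 5473 genes below that level in both groups, 386 (7.05%) did. For the others, differences of that size were inside the interval.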

How the data were processed

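RNA of sorted LSK cells was sequenced from NuGEN Ovation Ultralow libraries, per the labels' protocols. The submitters' processing notes name RSEM 1.3.1, FastQC 0.11.2 and mm10/GRCm38. Aligner, annotation release and strand setting were not given in the sources used here. For each gene and sample an expected count and a TPM value were deposited, per the file headers. FPKM and lengths in the deposited tables were not used. Of 53342 gene IDs, 53237 (99.8%) were matched to GENCODE M21, which gave the coordinates.

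Expected counts were rounded and genes with few reads removed (filterByExpr, minimum count 10, edgeR 4.0.16), leaving 16482 genes. Libraries were scaled with TMM factors, and CPM values carry them. The robust quasi-likelihood F test compared 4 group means over all 16 samples, with Benjamini-Hochberg adjustment over all genes. The SE is the size of the log2 difference over the root of F, and intervals are 95% ones from the t distribution of the fit. The script was tested on simulated counts. A count of 3, the floor for an unread gene, came to between 0.0918 and 0.272 CPM in the PBS libraries. Promoter sequences are from RefSeq (GRCm38.p6).

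Replicate numbers shared between the genotypes were taken as pairing the samples, since the correlations of same-numbered deviations from the group means, over genes, were 0.22, 0.33, 0.59, 0.41 and 0.67, all above 0.1. Differently numbered pairs ran from -0.54 to 0.56, the highest being wild-type 5 with mutant 4 (0.56) and wild-type 4 with mutant 5 (0.38), so mutant replicate 4 correlated better with another number than with its own. The pairing comes from the data, and the labels do not explain the numbers. The part of the immunoglobulin share in these correlations was not tested.

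Named genes were Gata2, Kit and Ly6a, all genes called, the 12 genes with the smallest p in each direction at a mean of at least 5 CPM, the 2 list members with the smallest p, and the genes tested within 500 kb of Gata2. Other list members are named as background to a list. Dab2 and Hnf4a, which alternatives called, are named after their values were seen. Members, lists and tests were chosen with earlier results of these data known. Alternatives were other scalings, filters and tools (DESeq2 1.42.0, limma 3.58.1, R 4.3.3), PBS groups alone, covariates for immunoglobulin share and code writing, a replicate block, and each PBS replicate left out. Fits within or with a covariate for Y-linked and Xist libraries and the windows of 250 and 1000 kb were added after seeing the data.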

Additional observations from a re-analysis of the deposited data

Results flagged for a closer look

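In 4 of 58 groups of 5 PBS libraries examined, 1 library stood apart from the other 4 by more than Dixon's 95% limit, which chance alone passes in about 1 in 20 groups. Esam was at 79.43 CPM in mutant replicate 3, where the other mutant libraries ran from 54.3 to 59.06 CPM. H1fx was at 15.96 CPM in wild-type replicate 3, against 5.647 to 7.011 CPM in the others. Acot2 was at 8.148 CPM in wild-type replicate 2, against 25.7 to 31.48 CPM. Zfp992 was at 10.1 CPM in wild-type replicate 4, against 15.39 to 17.17 CPM.

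For 4 named genes the genotype difference after 5-FU was set apart from that under PBS by the test of the difference itself (edgeR). Named genes were picked in part by their p-value under PBS, and that difference enters this test, so the choice can enlarge the change. It changed by -2.09 for Selp and by 3.87 for Slc35d3, as described in the report. It changed by 8.74 for Trbc1, which the wild-type 5-FU libraries held at no more than 1 count. It changed by 7.99 for Ms4a1, the B cell gene for CD20. Wild-type 5-FU libraries held at most 0.3324% immunoglobulin counts and the mutant 5-FU libraries 5.689 to 26.57%; the part of lymphoid cells in these 2 values was not tested.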

How the results depend on the processing

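The number of genes called and 88 of the 96 named genes were followed under up to 31 alternatives (30 for Gzma and 27 for Nlrp3, which were not tested in the others). Of these genes, 79 kept their direction under every alternative that gave a value. Predicted models near Gata2, list counts and intervals were not recomputed, and the neighbourhood only for its window. Over all 31 alternatives, passing or not, Slamf1 ran from 1.43 to 2.20, Hoxb2 from 1.28 to 2.08 and Selp from 1.42 to 1.75. The low ends all came from limma-trend on TPM, with 1 added to each TPM before the log and no TMM factors. Those values are therefore not on the scale of the others. Slamf1 passed in 26, Hoxb2 in 22 and Selp in 23. The number of genes called was 3 in the reported fit. It was 26 with DESeq2, 9 with limma-voom, 4 with the immunoglobulin share as a covariate in PBS groups alone, 5 with the immunoglobulin share as a covariate over all groups, and 1 among Xist libraries. It was 0 with PBS groups alone (318 at an unadjusted p of 0.05), 0 for codes with no leading zero (299), 0 for Y-linked libraries (362) and 0 by limma-trend on TPM (193). With 1 replicate left out it ran from 1 to 4, the 1 being without wild-type replicate 4.

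With the replicate number as a block, 3 genes were called over all groups and 1 with PBS groups alone, where Slamf1 stood at 1.93 and Hoxb2 at 1.96 (adjusted p = 0.0699 each). The block over all groups changed no other call. Slamf1 lost its call with PBS groups alone (1.94), with no leading zero (1.97), among Y-linked libraries (1.53) and on TPM (1.43). Hoxb2 lost it with PBS groups alone (1.92), among codes with (1.83) and without a leading zero (2.08), among Xist (2.03) and Y-linked libraries (1.81), with the immunoglobulin covariate in PBS groups alone (1.97) and on TPM (1.28). Selp lost it with PBS groups alone (1.58), with no leading zero (1.68), among Xist (1.66) and Y-linked libraries (1.44) and on TPM (1.42). The fits within codes or sex-linked kinds and with PBS groups alone have fewer samples; the cause of the other losses was not tested. With 1 replicate left out, Hoxb2 ran from 1.78 to 2.05 and Selp from 1.45 to 1.75.

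The sign turned in 9 genes. Ly6a (-0.13) was at 0.08 in Y-linked libraries, at 0.01 by limma-voom and from -1.06 to 0.77 with 1 replicate left out. With no leading zero, Cxcr2 (-0.58) was at 0.20, Ly9 (-0.34) at 0.13, Cnbp at -0.06 and Rab7 at 0.04. Among Xist libraries Ly9 and Rab7 were at 0.03, and Rpl10 was at 0.13 in Y-linked libraries and 0.09 by limma-voom. On TPM Rab7 was at 0.08 and Copg1 at 0.06, Copg1 was at 0.01 with the block in PBS groups alone, and Kbtbd12 at 0.03 with a leading zero. With 1 replicate left out Rpl10 ran from -0.39 to 0.20, Cnbp from -0.03 to 0.19, Copg1 from -0.23 to 0.17, Sec61a1 from -0.36 to 0.02, Kbtbd12 from -0.43 to 0.09 and Rab7 from -0.11 to 0.08.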

Other observations

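Of 18 heat shock chaperone genes 1 was past an unadjusted p of 0.05, and of 21 genes of aldehyde and oxidative stress 1, both higher in value in the mutant; the list medians were 0.18 and 0.07. Hspa1b, which encodes an inducible HSP70 chaperone, had 114.4, 21.69, 10.79, 138.9 and 26.39 CPM in wild-type and 478.3, 204.0, 11.54, 346.1 and 609.6 CPM in mutant replicates 1 to 5. It was higher in the mutant in every same-numbered pair, the least in replicate 3, and did not pass (2.40 ± 0.99 SE, adjusted p = 1, edgeR). Aldh1a1, a retinaldehyde dehydrogenase, stood at 15.65 ± 4.684 CPM in wild-type libraries and 28.78 ± 8.742 CPM in mutant ones (SD, n = 5 each; 0.88 ± 0.35 SE, adjusted p = 1). Among 26 genes of adhesion and homing, the hyaluronan receptor Cd44 was lower in value in the mutant, at 107.0 ± 15.03 against 146.2 ± 21.38 CPM (-0.45 ± 0.15 SE, adjusted p = 1).

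For 2 of the immunoglobulin variable genes that DESeq2 called, chosen after their values were seen, 2 or 3 libraries held nearly all counts. Igkv9-123 was at 968.7 and 169.8 CPM in wild-type replicates 3 and 4 and at no more than 0.09994 CPM in the other 8 PBS libraries. Ighv1-58 was at 42.71 and 41.74 CPM in mutant replicates 3 and 5, at 6.709 CPM in mutant replicate 2 and at no more than 0.5084 CPM in the other 7.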
